A study of Homo sapiens with 13 samples.

Results

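The clustered cancer-testis antigen genes of the X chromosome (the MAGEA, MAGEB, MAGEC, GAGE, PAGE, XAGE, SSX, CT45, CT47, CTAG and SPANX families) were followed in HEK293T, a cell line of human embryonic kidney transformed by adenovirus DNA and later given SV40 large T antigen. Members were chosen by gene symbol alone. Of 42405 probes on the array, 82 matched the family prefixes, which name 61 of the array's 21789 gene symbols. The same prefixes also caught 12 CTAGE probes and 2 SSX2IP probes, which lie on other chromosomes and are not clustered cancer-testis antigens, so the clustered X-linked genes had 68 probes for 54 genes and the CTAGE and SSX2IP probes are described separately. Of the 82 members, 55 were well above background often enough to be tested and 27 were not.

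The study measured RNA on 13 Agilent 2-colour arrays, each with treated RNA in one dye and its control RNA in the other. Cells given UNC0638 at 1 µM for 48 h were set against DMSO cells in 5 biological replicates on 7 arrays; the compound inhibits the histone methyltransferases G9a, made from EHMT2, and GLP, made from EHMT1. WIZ, a partner of these enzymes with zinc fingers, was knocked down by siRNA for 72 h and set against control siRNA in 2 biological replicates on 4 arrays. For G9a itself the knockdown also lasted 72 h, with control siRNA beside it, in 2 biological replicates on 2 arrays. UNC0638 replicates 1 and 2 and both WIZ siRNA replicates were hybridised in both dye orientations, while UNC0638 replicates 3 to 5 and G9a siRNA had the treated RNA in Cy5 only. The siRNAs came from Dharmacon and were delivered with DharmaFECT 4. The inhibitor and the siRNA experiments differ in time and in control, and a shared control RNA for the WIZ and G9a experiments is neither stated nor denied in the labels.

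Cancer-testis antigens are proteins made in male germ cells and silenced in most other adult tissues, and many tumours express them again. Type I MAGE genes and the neighbouring GAGE, PAGE, XAGE, SSX and SPANX genes sit on the X chromosome in tandem families of near-identical copies, and DNA methylation of their promoters is the best known means of keeping them silent. The enzymes G9a and GLP methylate histone H3 at the lysine known as H3K9, a mark of silenced chromatin that is studied together with DNA methylation at germline genes.

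The promoters of the X-linked members that passed the test under UNC0638 are shown because members of one family share sequence there and CpG sites are where DNA methylation acts. Each sequence holds the 250 bases before the gene's start in RefSeq on GRCh38.p14, written 5′ to 3′ on the gene's strand, with CpG sites in capitals. The positions are chrX:49829010-49829259 (plus strand) for PAGE4, chrX:143517476-143517725 (minus strand) for SPANXN3, chrX:52368771-52369020 (plus strand) for XAGE2, the current name of the array's XAGE2B, chrX:142205291-142205540 (minus strand) for MAGEC2 and chrX:141903644-141903893 (plus strand) for MAGEC1. They are chrX:152769690-152769939 (minus strand) for MAGEA6, chrX:152714378-152714627 (plus strand) for MAGEA2B and chrX:30215313-30215562 (plus strand) for MAGEB2.
PAGE4: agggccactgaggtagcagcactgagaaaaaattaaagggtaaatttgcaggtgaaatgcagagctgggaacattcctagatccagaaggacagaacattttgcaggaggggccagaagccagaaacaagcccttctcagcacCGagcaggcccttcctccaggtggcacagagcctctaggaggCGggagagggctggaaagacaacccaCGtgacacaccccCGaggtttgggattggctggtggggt
SPANXN3: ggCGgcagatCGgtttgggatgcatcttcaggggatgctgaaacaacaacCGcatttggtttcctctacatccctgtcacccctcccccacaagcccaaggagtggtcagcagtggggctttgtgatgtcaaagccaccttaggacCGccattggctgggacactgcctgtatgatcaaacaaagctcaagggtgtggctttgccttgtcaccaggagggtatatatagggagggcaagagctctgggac
XAGE2: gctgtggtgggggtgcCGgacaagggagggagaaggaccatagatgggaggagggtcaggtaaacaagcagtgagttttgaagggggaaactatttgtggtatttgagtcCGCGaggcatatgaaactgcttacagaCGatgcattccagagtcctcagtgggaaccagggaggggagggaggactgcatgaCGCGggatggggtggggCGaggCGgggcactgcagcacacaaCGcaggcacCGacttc
MAGEC2: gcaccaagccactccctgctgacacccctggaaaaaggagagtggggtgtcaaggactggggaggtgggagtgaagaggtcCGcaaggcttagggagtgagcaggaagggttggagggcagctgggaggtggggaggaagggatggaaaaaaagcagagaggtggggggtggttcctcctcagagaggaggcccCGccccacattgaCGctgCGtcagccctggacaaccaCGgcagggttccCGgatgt
MAGEC1: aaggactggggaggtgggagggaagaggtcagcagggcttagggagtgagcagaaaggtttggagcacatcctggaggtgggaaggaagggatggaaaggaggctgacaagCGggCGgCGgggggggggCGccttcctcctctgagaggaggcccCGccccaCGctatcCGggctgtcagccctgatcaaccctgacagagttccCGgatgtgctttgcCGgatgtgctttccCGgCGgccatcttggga
MAGEA6: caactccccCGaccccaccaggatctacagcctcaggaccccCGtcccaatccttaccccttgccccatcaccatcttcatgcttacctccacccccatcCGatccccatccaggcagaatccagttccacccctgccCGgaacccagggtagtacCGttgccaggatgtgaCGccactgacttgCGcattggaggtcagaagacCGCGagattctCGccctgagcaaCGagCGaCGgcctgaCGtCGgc
MAGEA2B: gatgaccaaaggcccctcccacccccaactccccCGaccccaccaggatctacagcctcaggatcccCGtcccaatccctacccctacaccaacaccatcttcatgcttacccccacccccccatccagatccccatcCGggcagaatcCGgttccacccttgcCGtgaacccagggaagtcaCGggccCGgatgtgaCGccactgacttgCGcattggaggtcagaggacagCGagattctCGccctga
MAGEB2: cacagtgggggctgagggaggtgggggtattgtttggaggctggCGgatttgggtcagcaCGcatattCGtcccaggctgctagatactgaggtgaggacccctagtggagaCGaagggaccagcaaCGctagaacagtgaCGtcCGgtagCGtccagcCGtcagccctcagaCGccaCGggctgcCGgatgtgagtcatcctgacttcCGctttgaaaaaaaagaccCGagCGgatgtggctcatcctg
SPANXN1 and SPANXN5, which did not pass the test, are shown for comparison with SPANXN3, at chrX:145247253-145247502 (plus strand) and chrX:52797428-52797677 (minus strand).
SPANXN1: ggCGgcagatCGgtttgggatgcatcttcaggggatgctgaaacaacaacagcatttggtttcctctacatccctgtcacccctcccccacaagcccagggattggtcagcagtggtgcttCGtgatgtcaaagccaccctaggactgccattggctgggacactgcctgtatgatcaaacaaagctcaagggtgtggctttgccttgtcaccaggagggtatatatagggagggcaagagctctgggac
SPANXN5: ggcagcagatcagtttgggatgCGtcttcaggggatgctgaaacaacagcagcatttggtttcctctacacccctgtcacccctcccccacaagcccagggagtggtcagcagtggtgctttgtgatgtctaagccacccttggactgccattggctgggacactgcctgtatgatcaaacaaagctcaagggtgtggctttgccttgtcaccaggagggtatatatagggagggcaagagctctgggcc

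Of the 54 clustered genes, 42 had a promoter in the RefSeq table by symbol. The 250-base windows held a median of 7 CpG sites, with a range of 1 to 18, against a median of 11 over 27305 promoters of the genome. The motif CGGATGT, read on either strand and chosen after the sequences had been seen, stood in 11 of the 42 windows (26.2%), against 1.24% of all promoters and 3.37% of 949 chromosome X promoters. Its first letters are a CpG, so each copy counts among the CpG sites. It stood in 6 of 7 MAGEA promoters and in those of MAGEB2, MAGEB10, MAGEC1, MAGEC2 and SSX2. A match of letters is a description of the sequence and not a binding site.

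The targeted transcripts were lower in their own knockdown. WIZ RNA had log2 ratios of -2.26 and -1.97 in the WIZ siRNA replicates, and EHMT2 RNA had -1.67 and -1.65 in the G9a siRNA replicates. All 9 kidney and HEK293T marker genes checked were well above background in all 26 channels. Of 11 male germ cell markers, 8 were bright enough to test, none was well above background in every channel, and none passed the test under UNC0638. The summed intensity of the germ cell list was 1324 to 1596 in UNC0638 RNA and 1406 to 1578 in DMSO RNA, and DAZL, PIWIL1 and ODF1 were too dim to test. Of the markers of other lists, LHX1 of kidney (-0.53; adjusted p 0.027) and AMH of Sertoli cells (-0.49; adjusted p 4.65e-04) were lower with UNC0638, and 2 of 6 fibroblast genes, COL3A1 (0.25; adjusted p 0.040) and LUM (0.39; adjusted p 0.011), were higher, while COL1A1, COL1A2, DCN and THY1 lay between -0.03 and 0.07 and did not pass. Their part in the member values was not tested. The UNC0638 replicates were not alike. Over all probes tested, UNC0638 replicate 3 had correlations of 0.87 and 0.83 with G9a siRNA replicates 1 and 2, which share its dye orientation and array set, and of 0.18, 0.15, 0.64 and 0.10 with UNC0638 replicates 1, 2, 4 and 5. Replicate 4 had correlations of 0.47 and 0.47 with the G9a siRNA replicates and replicate 5 of 0.18 and 0.20, on arrays of the same dye orientation and set. The labels name no array set, and it was inferred here from the lowest Cy3 background SD of each array. That value was 11 for UNC0638 replicates 3 to 5 and G9a siRNA and 4 or 5 for the other arrays. EHMT2 ratios in UNC0638 replicates 1 to 5 were 0.12, -0.18, -0.36, 0.02 and -0.48. Arrays of the same RNA pair in opposite dye orientations correlated at 0.041 and 0.024 for UNC0638 and at -0.501 and -0.362 for WIZ siRNA. The averages over both orientations were used for these, and UNC0638 replicates 3 to 5 and G9a siRNA have 1 orientation each, where dye and treatment cannot be told apart. The number of arrays limits the precision of every value.

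With UNC0638, 7 member probes rose and 1 fell. PAGE4, SPANXN3, XAGE2B, MAGEC2, MAGEC1, MAGEA2B and MAGEA6 were higher in UNC0638 RNA than in DMSO RNA, by 1.25-fold to 2.15-fold with the processing used here, and MAGEB2 was lower, at 69.8% of its DMSO level. The 8 probes are 14.5% of the 55 members tested and 18.2% of the 44 clustered members tested, where 3.24% of all 34619 probes passed (limma, Benjamini-Hochberg adjusted p under 0.05 over all probes, the rule used throughout). For the higher direction alone the share of all probes was 1.57%, and for the lower direction 1.67%. Among other probes of chromosome X, 49 of 894 passed (5.48%). No member passed the brightness filter through UNC0638 RNA alone, while 8 members did so through treated RNA of the siRNA experiments alone. XAGE2B passed it through UNC0638 RNA (4 of 7 arrays) and control RNA of the G9a siRNA experiment (1 of 2) only. MAGEC1 passed through UNC0638 RNA (4 of 7) and control RNA of the WIZ siRNA experiment (3 of 4) only. The median log2 ratio of the 44 clustered members was 0.06, against -0.01 over all probes. All 5 replicates were above 0 for 12 of the 44, where 7.02% of all probes had this, and below 0 for 2, where 8.11% did. All 8 probes also passed with any 1 of the 9 replicates left out, UNC0638 replicate 3 among them, the highest adjusted p being 0.047, for MAGEA6. P-values rest on the spread between replicates that the labels call biological, pooled over the 3 treatments. They do not cover a dye effect common to arrays of 1 orientation.

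**Figure D1:**
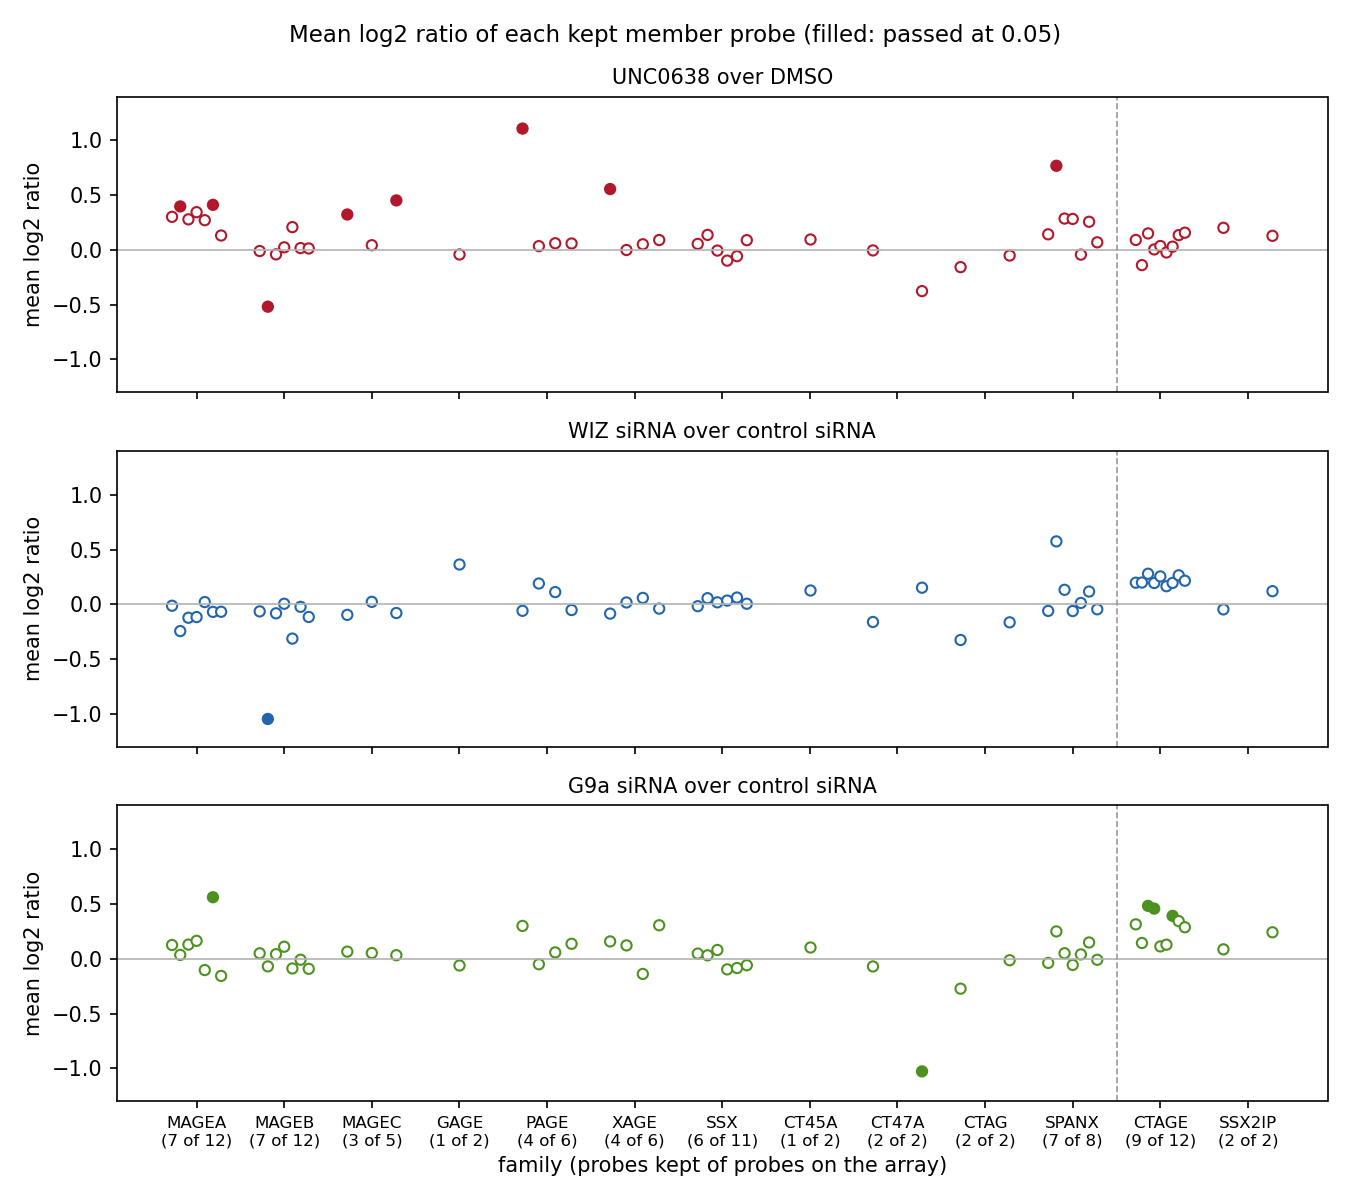
Mean log2 ratio of treated over control RNA (vertical axis) for each member probe tested, by family (horizontal axis), with UNC0638 over DMSO, WIZ siRNA over control siRNA and G9a siRNA over control siRNA from top to bottom. Each point is 1 probe, filled where it passed at 0.05, and the families right of the dashed line are not clustered on the X chromosome. All 7 MAGEA probes lie above 0 under UNC0638, MAGEB2 is the lowest point under UNC0638 and WIZ siRNA, and all 9 CTAGE probes lie above 0 under both siRNAs.

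PAGE4 encodes a small disordered protein of the prostate and testis. Its probe lies at chrX:49597200-49598454 on build 37.1, the build of the files, and spans an intron. Log2 ratios in UNC0638 replicates 1 to 5 were 1.10, 1.73, 0.89, 0.86 and 0.96. Every replicate was above 0, and replicate 2 was the highest. The mean was 1.11 (SE 0.12, n = 5; adjusted p 0.0011), a 2.15-fold difference. Before any correction, over the Cy3 and Cy5 arrays of replicates 1 and 2 and then replicates 3 to 5, the spot read 307, 577, 589, 802, 201, 195 and 196 in UNC0638 RNA on the 7 arrays, against 180, 197, 190, 157, 82, 59 and 63 in DMSO RNA, over local backgrounds of 24 to 60. The UNC0638 channel was the brighter one on all 7 arrays, whichever dye it carried. PAGE4 was well above background on 7 of 7 arrays in UNC0638 RNA and on 5 of 7 in DMSO RNA. In the other treatments its mean was -0.06 (SE 0.18) under WIZ siRNA and 0.30 (SE 0.18) under G9a siRNA, neither past the threshold.

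SPANXN3 belongs to the SPANX-N genes, expressed in testis. Its probe lies at chrX:142596832-142596891. Log2 ratios in UNC0638 replicates 1 to 5 were 0.82, 0.84, 0.51, 0.91 and 0.75, with a mean of 0.77 (SE 0.09; adjusted p 0.0022). All 5 were above 0, and replicate 3 was the lowest. It was well above background on 6 of 7 arrays in UNC0638 RNA and on 2 of 7 in DMSO RNA, so the level in DMSO RNA is near the background and the ratio is the less precise for it. SPANXN3 had the highest ratio of any member under WIZ siRNA, 0.48 and 0.67, which did not pass (mean 0.57, SE 0.14; adjusted p 0.172) but did with a term for dye in the fit (adjusted p 0.0036). It read -0.06 and 0.56 under G9a siRNA.

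The last 103 bases before the start are identical in SPANXN3 and SPANXN1, and 101 bases of the same stretch are shared by SPANXN3 and SPANXN5, as can be read from the ends of the sequences above. Their probes gave different values, and the difference between probes was not tested. SPANXN1 had a mean log2 ratio of -0.04 under UNC0638, SPANXN5 of 0.26 (adjusted p 0.080) and SPANXN3 of 0.77. SPANXN5 was above 0 in all 5 replicates. SPANXN1 and SPANXN5 were well above background on 2 of 7 arrays in UNC0638 RNA, which leaves their ratios poorly measured. The other SPANX probes did not pass either. SPANXA1, the brightest SPANX probe, also matches SPANXA2 and SPANXC and read 0.27, 0.69, -0.07, 0.09 and 0.45 in UNC0638 replicates 1 to 5.

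XAGE2B, a GAGE-related gene first described in tumours, was represented by a probe at chrX:52115725-52115784 that matches XAGE2 and XAGE2B alike. Log2 ratios in UNC0638 replicates 1 to 5 were 0.57, 0.48, 0.72, 0.40 and 0.60, with a mean of 0.55 (SE 0.06; adjusted p 0.0011). All 5 lay above 0. The probe was well above background on 4 of 7 arrays in UNC0638 RNA and on 1 of 7 in DMSO RNA. In replicates 4 and 5 it was so in neither RNA, so those ratios are of readings near background. Under WIZ siRNA it read -0.10 and -0.07, and under G9a siRNA 0.26 and 0.06.

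The MAGEC genes are expressed in testis and in tumours such as melanoma and myeloma. MAGEC2 encodes a partner of the ubiquitin ligase TRIM28. Its probe at chrX:141290323-141290382 had log2 ratios of 0.63, 0.27, 0.53, 0.38 and 0.45 in UNC0638 replicates 1 to 5 (mean 0.45, SE 0.06; adjusted p 0.0034). All 5 were above 0, but the dye mattered. With UNC0638 RNA in Cy5 replicates 1 and 2 read 1.04 and 0.55, and with it in Cy3 they read 0.21 and -0.01. With a term for dye in the fit of single arrays, which counts both arrays of an RNA pair, the mean was 0.36 (adjusted p 0.0096). MAGEC1, at chrX:140996897-140996956, had ratios of 0.35, 0.42, 0.28, 0.18 and 0.39 (mean 0.32, SE 0.05; adjusted p 0.0085). It was above 0 in every replicate, and in both orientations of replicates 1 and 2. In replicates 3 to 5, with UNC0638 RNA in Cy5 only, MAGEC1 was well above background in neither RNA. Those ratios are of readings near background. MAGEC1 was well above background on 3 of 7 arrays in DMSO RNA and MAGEC2 on 4 of 7. The probe of MAGEC3 read 0.04 on average, and a further probe each of MAGEC1 and MAGEC2 was too dim to test.

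The MAGEA genes encode the antigens by which the family was discovered, and MAGEA3 and MAGEA6 proteins bind the ubiquitin ligase TRIM28. All 7 MAGEA probes tested had mean log2 ratios above 0 under UNC0638, between 0.13 and 0.41, and 2 of them passed. Several of these probes hybridise to more than 1 MAGEA gene, so the 7 are not independent. MAGEA2B, whose probe at chrX:151886664-151886723 also matches MAGEA2, read 0.40, 0.50, 0.28, 0.58 and 0.22 in UNC0638 replicates 1 to 5 (mean 0.40, SE 0.06; adjusted p 0.011). MAGEA6, through the probe A_33_P3342375 for which the files list no position, read 0.29, 0.53, 0.51, 0.38 and 0.34 (mean 0.41, SE 0.07; adjusted p 0.012). Both probes were well above background in both RNAs on all arrays, with mean log2 intensities of 12.21 and 11.63 in UNC0638 RNA and 11.81 and 11.22 in DMSO RNA. Neither transcript was near the background in DMSO cells. A further MAGEA2B probe, A_33_P3411165, also had a mean above 0 under UNC0638 but did not pass. The median of the 7 MAGEA probes was 0.31, 0.36, 0.30, 0.57 and -0.02 in UNC0638 replicates 1 to 5. In replicates 1 to 4 all 7 probes were above 0, and in replicate 5 only 3 were.

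MAGEA1 and a further MAGEA6 probe came close to the threshold. MAGEA1 read 0.26, 0.28, 0.40, 0.72 and 0.05 (mean 0.34, SE 0.09; adjusted p 0.068). The MAGEA6 probe A_23_P136870, which also matches MAGEA3, read 0.39, 0.39, 0.32, 0.50 and -0.09 (mean 0.30, SE 0.08; adjusted p 0.079). The MAGEA2B and MAGEA6 windows printed above share a run of 38 bases. The MAGEA2B window holds CGGATGT and the MAGEA6 window does not, and the 2 probes had nearly the same ratio.

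MAGEB2, which encodes a MAGE protein of testis and tumours and lies in the separate MAGEB cluster, went the other way. Its probe at chrX:30237708-30237767 matches 1 gene and was well above background in both RNAs on all arrays. Log2 ratios in UNC0638 replicates 1 to 5 were -0.45, -0.60, -0.31, -0.60 and -0.63 (mean -0.52, SE 0.07; adjusted p 0.0047). All 5 were below 0. Under WIZ siRNA the replicates read -1.04 and -1.05 (mean -1.05, SE 0.11; adjusted p 0.0055), so WIZ siRNA cells held 48.4% of the control level. On the single WIZ siRNA arrays the ratios were -1.07 and -1.11 with the siRNA RNA in Cy3 and -1.02 and -0.99 with it in Cy5. The uncorrected spots read 228, 364, 376 and 315 in WIZ siRNA RNA against 820, 1258, 567 and 468 in control siRNA RNA. Every WIZ siRNA spot was dimmer than every control siRNA spot. The call rests on both replicates, since without WIZ siRNA replicate 1 the adjusted p was 0.143 at a mean of -1.05, and without replicate 2 it was 0.206 at -1.04. With the authors' log2 ratios the mean was -1.21 (adjusted p 0.064). Under G9a siRNA MAGEB2 read -0.28 and 0.14 (mean -0.07; adjusted p 0.68).

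The other 6 MAGEB probes tested lay between -0.04 and 0.21 on average under UNC0638 and none passed. MAGEB6 had the highest of these means (0.21; adjusted p 0.175). The MAGEB2 window holds CGGATGT, as do the windows of MAGEC1, MAGEC2 and MAGEA2B, whose probes rose under UNC0638. Of the genes with a promoter, the motif stood in 3 of 7 that rose under UNC0638 and in 8 of the other 35. The windows of PAGE4 and SPANXN3 hold 4 CpG sites each, that of MAGEC2 6, that of XAGE2 10, those of MAGEA2B and MAGEC1 11, and those of MAGEA6 and MAGEB2 15. The genes that rose thus spanned 4 to 15 CpG sites, within the span of all clustered genes.

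**Figure D2:**
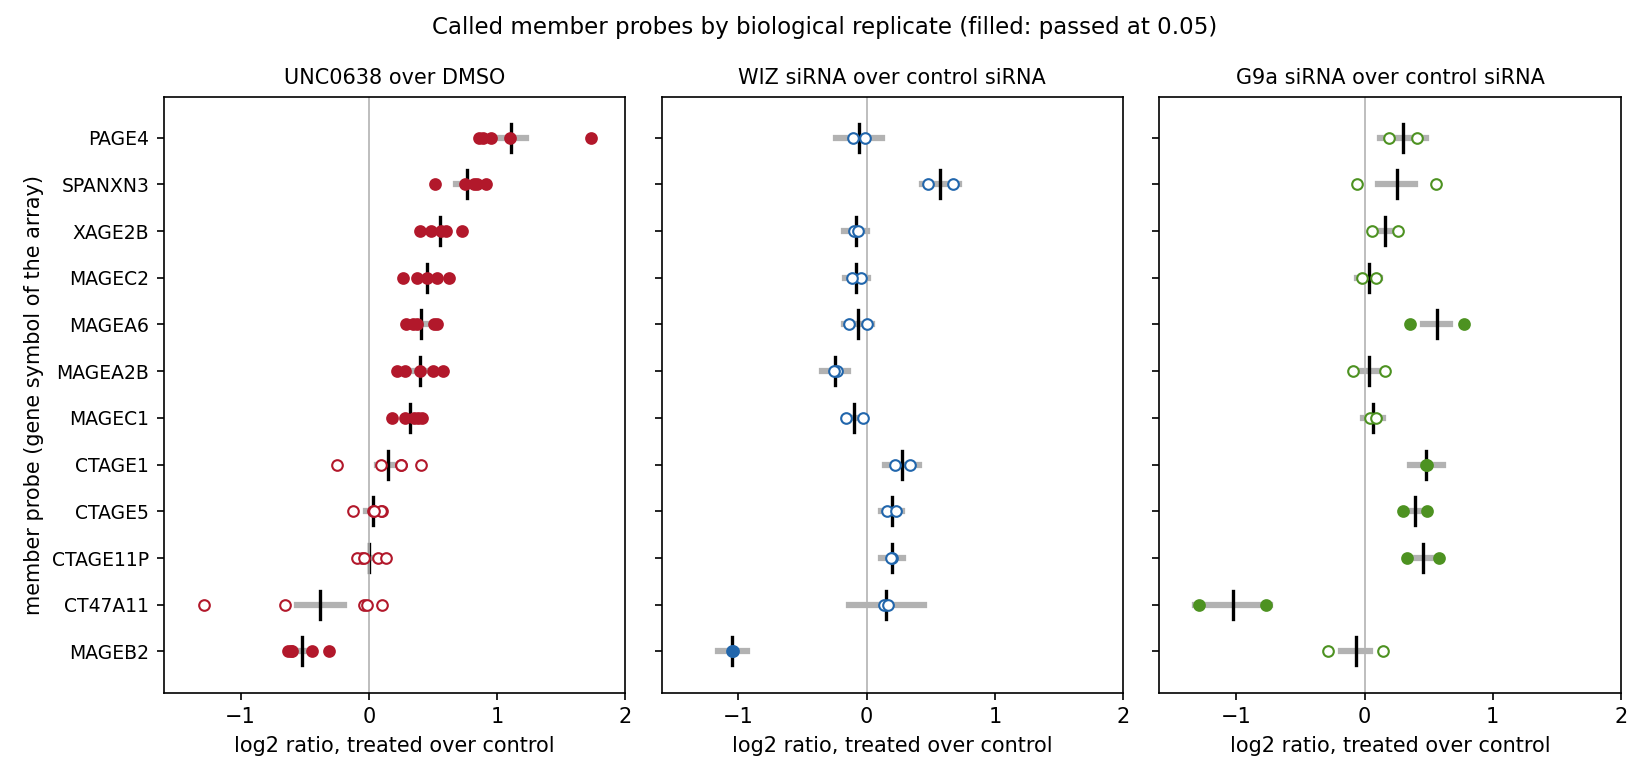
Log2 ratio of treated over control RNA (horizontal axis) for the 12 member probes that passed in at least 1 treatment (vertical axis), with UNC0638, WIZ siRNA and G9a siRNA from left to right. Points are biological replicates (5, 2 and 2), filled where the probe passed in that treatment, black ticks are means and grey bars reach 1 SE of the fit to either side. MAGEB2 lies below 0 in all UNC0638 and WIZ siRNA replicates and on both sides of 0 under G9a siRNA.

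The genes that rose under UNC0638 differed in how far they stood above background. MAGEA2B and MAGEA6 were measured in DMSO RNA on all arrays, and PAGE4, SPANXN3, XAGE2B, MAGEC1 and MAGEC2 only on some. Of the 8 clustered members that were well above background in both RNAs on all 13 arrays, 3 passed under UNC0638 (MAGEA2B, MAGEA6 and MAGEB2), where 4.22% of the 19340 probes equally bright did. Of the 36 dimmer ones 5 passed, where 2% of 15279 did. In bulk RNA a higher level cannot be told apart from more cells with the transcript. The offset of 50 added in background correction draws the ratios of dim probes toward 0. With the authors' log2 ratios the means of the dim probes were 1.73 for PAGE4, 1.66 for SPANXN3, 1.00 for XAGE2B, 1.03 for MAGEC2 and 0.67 for MAGEC1, and with the authors' log10 table, put on the log2 scale, they were 1.97, 2.20, 1.09, 1.30 and 0.85. MAGEA2B and MAGEA6 stayed at 0.40 and 0.42 with the log2 ratios and at 0.39 and 0.37 with the log10 table. The size of the difference for the 5 dim probes therefore depends on the processing.

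**Figure D3:**
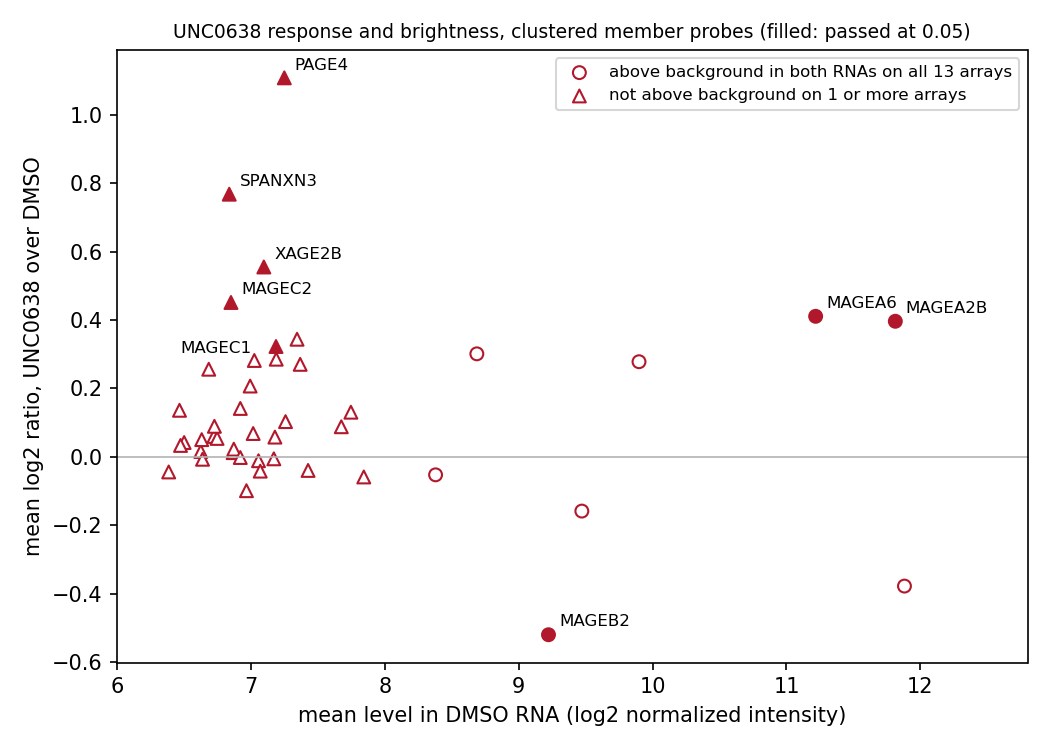
Mean log2 ratio of UNC0638 over DMSO (vertical axis) against the mean level in DMSO RNA in log2 normalized intensity (horizontal axis) for the 44 clustered member probes tested. Circles mark probes well above background in both RNAs on all 13 arrays, triangles the others, and filled symbols those that passed at 0.05. PAGE4, SPANXN3, XAGE2B, MAGEC2 and MAGEC1 stand at the dim end and MAGEA6, MAGEA2B and MAGEB2 at the bright end.

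WIZ knockdown changed 1 member, MAGEB2, of 55 (1.82%), where 0.508% of all probes passed. No clustered member was higher by the test. The median of the 44 clustered members was -0.03, against 0.02 over all probes, and 19 lay above 0 and 25 below. Both replicates were above 0 for 10 of the 44, where 42% of all probes had this, and below 0 for 18, where 31.2% did. Of the 7 probes that rose under UNC0638, none passed here. SPANXN3 averaged 0.57 and the other 6 lay between -0.24 and -0.06. MAGEA2B, the lowest, read -0.23 and -0.26 (adjusted p 0.558), and MAGEC1 read -0.03 and -0.16. GAGE7, the brightest GAGE probe, matches 12 GAGE genes and read -0.08 and 0.82, so its replicates disagreed. CTAG1A, which encodes NY-ESO-1 and whose probe also matches CTAG1B, read -0.25 and -0.40 under WIZ siRNA (adjusted p 0.51). It read -0.28 and -0.26 under G9a siRNA and -0.11, 0.22, -0.30, -0.38 and -0.22 in UNC0638 replicates 1 to 5, and passed in none of the 3.

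**Figure D4:**
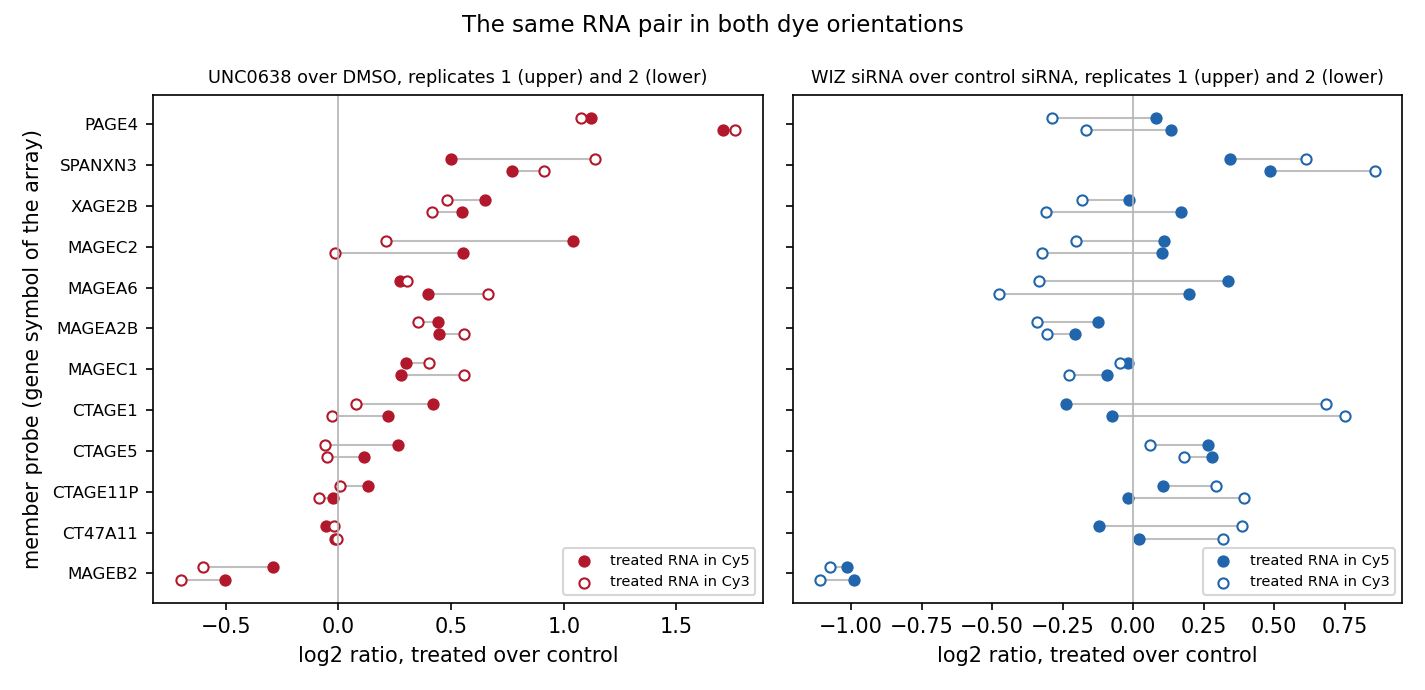
Log2 ratio of treated over control RNA (horizontal axis) on single arrays of UNC0638 (left) and WIZ siRNA (right) replicates 1 and 2 for the 12 member probes that passed in at least 1 treatment (vertical axis). Filled points have the treated RNA in Cy5 and open points in Cy3, and a grey line joins the 2 arrays of 1 RNA pair. PAGE4 stays between 1.08 and 1.76 under UNC0638 and MAGEB2 between -1.11 and -0.99 under WIZ siRNA in both orientations, while CTAGE1 changes sign with the dye under WIZ siRNA.

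G9a knockdown changed 5 members of 55 (9.09%), where 33.8% of all probes passed, and the share of clustered members was 4.55%. Among the 36 clustered members not well above background everywhere 0 were called by limma (1 at an unadjusted p under 0.05), where 12.4% of such probes passed, and among the 8 bright ones 2 were, where 50.7% did. The differences between these shares were not tested. Only 2 of the 5 were clustered X-linked members. Both replicates were above 0 for 17 of the 44 clustered members, where 36.7% of all probes had this, and below 0 for 10, where 41.3% did. The MAGEA6 probe A_33_P3342375, with no match listed, was higher, at 0.35 and 0.77 (mean 0.56, SE 0.11; adjusted p 0.0052), but not with a term for dye (0.46; adjusted p 0.092). The MAGEA6 probe A_23_P136870, which matches MAGEA3 and MAGEA6 and was also well above background on all arrays, read 0.13 and 0.12 and did not pass (adjusted p 0.479), so the 2 probes of this gene disagree. CT47A11 was lower by its brighter probe, at -0.77 and -1.29 (mean -1.03, SE 0.29; adjusted p 0.024). That probe, at chrX:120109790-120109849, matches 10 near-identical CT47A genes. With a term for dye its mean was -0.82 (adjusted p 0.062) and with array set as a term, a choice made after seeing the data, -0.77 (adjusted p 0.117), so the CT47A11 call ends under both. CT47A11 was the brightest CT47A probe, with mean log2 intensities of 11.93 in G9a siRNA RNA and 12.96 in control siRNA RNA. In UNC0638 replicates 1 to 5 it read -0.04, -0.01, -1.28, -0.66 and 0.10, low in replicates 3 and 4 only, and it did not pass there (adjusted p 0.29). Replicates 3 and 4 are also the UNC0638 replicates with the higher correlations with G9a siRNA over all probes. The dimmer CT47A11 probe tested, A_24_P332857, read -0.07 on average under G9a siRNA and did not pass (adjusted p 0.718). On the G9a siRNA arrays it was well above background on 0 in G9a siRNA RNA and on 1 in control siRNA RNA. Without G9a siRNA replicate 2 none of the 5 passed, with adjusted p from 0.130 to 0.299, and without replicate 1 CT47A11 (0.066) and CTAGE1 (0.125) did not. Without UNC0638 replicate 3, which enters through the shared spread, 8 members passed.

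The other 3 members that rose under G9a siRNA were CTAGE probes. CTAGE genes are retrocopies of MIA2 (formerly CTAGE5), a gene for a protein of the endoplasmic reticulum exit sites, and share its sequence. CTAGE1 read 0.49 and 0.48 (adjusted p 0.021), and CTAGE11P 0.33 and 0.58 (adjusted p 0.0050). A probe named CTAGE5, whose position in the files is chr6:132029698-132029757 and not the MIA2 locus on chromosome 14, read 0.30 and 0.48 (adjusted p 0.0068). With median centring in place of loess none of the 3 passed, with CTAGE1 at 0.29 (adjusted p 0.126), CTAGE11P at 0.21 (adjusted p 0.060) and CTAGE5 at 0.14 (adjusted p 0.178). CTAGE1 also did not pass with a term for dye (adjusted p 0.080) or for array set (adjusted p 0.062). All 9 CTAGE probes tested had means above 0 under G9a siRNA, between 0.11 and 0.48, and under WIZ siRNA, between 0.17 and 0.28. Under WIZ siRNA limma called 0 of the 9, and 2 had an unadjusted p under 0.05. Since these probes share sequence they are not independent measurements, and CTAGE1 read 0.68 and 0.75 with WIZ siRNA RNA in Cy3 but -0.24 and -0.08 with it in Cy5.

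Differences between treatments were tested directly for the members. XAGE2B differed between WIZ siRNA and UNC0638 (-0.64, SE 0.11; adjusted p 0.034), the 1 member called, where 0.705% of all probes did, 0.0838% higher and 0.621% lower under WIZ siRNA. XAGE2B was well above background on 1 of 4 arrays in WIZ siRNA RNA and on 0 of 4 in control siRNA RNA, so its WIZ siRNA ratio is one of readings near background and the contrast does not show a smaller response. PAGE4 missed the threshold in this contrast (-1.17, SE 0.22; adjusted p 0.053), as did MAGEA2B (-0.64, SE 0.12; adjusted p 0.053). Between G9a siRNA and UNC0638, 5 members differed, where 12.5% of all probes did, 5.86% higher and 6.66% lower under G9a siRNA. The contrast was -0.81 for PAGE4 (SE 0.22), -0.42 for MAGEC2 (SE 0.11) and -0.40 for XAGE2B (SE 0.11), and was above 0 for CTAGE11P and CTAGE5. On the 2 G9a siRNA arrays, however, MAGEC2 was well above background on 0 in either RNA, XAGE2B on 0 in G9a siRNA RNA and 1 in control siRNA RNA, and PAGE4 on 1 in G9a siRNA RNA and 0 in control siRNA RNA. The offset draws such ratios toward 0, so these 3 contrasts do not show a smaller response to G9a siRNA. Between G9a siRNA and WIZ siRNA, 2 members differed, where 20.4% of all probes did, 8.85% higher and 11.5% lower under G9a siRNA. These were MAGEB2 (0.98, SE 0.16; adjusted p 0.010) and the MAGEA6 probe A_33_P3342375 (0.63, SE 0.15; adjusted p 0.023), while the MAGEA6 probe A_23_P136870 differed by 0.14 (adjusted p 0.632). With array set as a term neither passed (adjusted p 0.161 for MAGEB2 and 0.228 for MAGEA6). SPANXN3 did not differ by the test between WIZ siRNA and UNC0638 (-0.19, SE 0.17; adjusted p 0.715), which does not show that the treatments acted alike on it. The contrasts against UNC0638 hold differences in time and control. G9a siRNA and WIZ siRNA arrays also differ wholly in array set and in the balance of dyes, which cannot be told apart from the treatments.

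The dim families showed little. The 6 SSX probes tested had UNC0638 means between -0.10 and 0.14, and SSX2, the brightest, read -0.02, 0.10, -0.15, -0.12 and -0.11. SSX genes are known from the fusion with SS18 in synovial sarcoma. CT45A5, whose probe also matches CT45A6, read 0.13, 0.07, 0.36, 0.01 and -0.04. XAGE-4 (A_33_P3222354) read 0.21 and 0.40 under G9a siRNA without passing (adjusted p 0.088), and was well above background on neither array in either RNA. Of the 27 members too dim to test, 3 were above background on no array, and most clustered families had some such probes (5 of 12 MAGEA, 5 of 12 MAGEB and 5 of 11 SSX). With no filter on brightness, MAGEA9 (log2 ratio 0.59; adjusted p 0.00030) and SSX1 (0.42; adjusted p 0.012) also passed under UNC0638. MAGEA9 was well above background on 3 of 7 arrays in UNC0638 RNA and on 1 of 7 in DMSO RNA, and its probe also matches MAGEA9B.

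Related genes were counted beside the members. Of 19 probes listed as other cancer-testis genes of the sex chromosomes, 1 passed under UNC0638 (5.26%). It was CXorf48, now CT55, at 0.54, 0.71, 0.69, 0.33 and 0.41 in UNC0638 replicates 1 to 5 (adjusted p 0.0027), which also rose under G9a siRNA (0.59 and 0.42; adjusted p 0.0066). Of the same 19 probes 3 passed under G9a siRNA (15.8%, against 33.8% of all probes). The other 2 were lower, FTHL17 at -1.03 (adjusted p 0.0049) and a probe labelled VCY at -0.30 (adjusted p 0.020). Which transcript the VCY probes bind was not tested. A further VCY probe, A_33_P3291510, read -0.03 on average under G9a siRNA and did not pass (adjusted p 0.857). Of 11 probes of the widely expressed type II MAGE genes, which carry the same MAGE homology domain, 0 passed under UNC0638 and 0 under WIZ siRNA with limma (0 and 4 at an unadjusted p under 0.05), and 6 were lower under G9a siRNA (54.5%), where 18.8% of all probes were lower. MAGED2 had the lowest of these means (-1.05; adjusted p 0.0047). The 6 lower probes were of MAGED1, MAGED2, MAGED4B and TRO, so some genes are counted repeatedly. Of the 19340 probes well above background in both RNAs on all arrays, 5271 were lower under G9a siRNA. Of 59 probes of repressors and DNA methylation genes, 1 passed under UNC0638, a probe of C3orf63 at 0.33 (adjusted p 0.037), and no probe of DNMT1, DNMT3A, DNMT3B or UHRF1 did. Under G9a siRNA 20 of the 59 passed (33.9%), close to the share of all probes. Of 10 probes of the ubiquitin ligases and partners that MAGE proteins bind, 0 passed under UNC0638 with limma, also at an unadjusted p under 0.05. Under G9a siRNA 6 of the 10 passed (60%), 3 higher and 3 lower, where 33.8% of all probes did. TRIM28 read -0.09 under UNC0638 and -0.70 under G9a siRNA.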

How the data were processed

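RNA from HEK293T cells was hybridised to 13 Agilent Human 8x60K arrays. The starting values were the deposited intensities of each spot and its background, pixel means and medians per the file headers. The authors' log2 ratio of the channels, deposited in the same files, and the authors' log10 ratio in a table for the whole series served as alternatives. The log10 table matched each array's own ratio with the sign of control over treated on 8 arrays and of treated over control on 5, and was turned accordingly. Its column medians as deposited were 0, 0.00794, -0.00301, 0.00818, -0.00359, -0.00609 and -0.00882 for the UNC0638 arrays, -0.00413, 0, -0.01 and 0.0032 for WIZ siRNA and 0.00178 and -0.00027 for G9a siRNA, and how it was centred is unknown. The files name channels 1 and 2 and the labels the dyes, and the targeted transcripts bear the direction out on the siRNA arrays. The UNC0638 arrays, which have no knocked-down transcript, were read with the same assignment of channels to dyes. No source used here names the scanner software, slide or scan time.

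All 62976 spots were corrected with normexp (offset 50), loess-normalized array by array (the 4259 control spots had weight 0), averaged per probe, turned to treated over control and averaged over dye-swapped pairs, in R 4.3.3 with limma 3.58.1. Well above background means a spot brighter than its surroundings by over 2.6 background SDs; the 34619 probes tested met this on 50% or more of the arrays in 1 or more of 6 RNA groups. The 9 biological replicates entered 1 limma fit (6 residual and 3.28 prior degrees of freedom) with a mean per treatment, tested against 0 and between treatments, and p-values were adjusted by Benjamini-Hochberg over all probes. Probes, not genes, were tested, because members share sequence. The fit was checked on simulated data. Symbols of the 82 members were matched to RefSeq through 66 accessions, 10 symbols and 6 synonyms. By the alignments in the files 18 members match several genes and 37 match 1, and 27 have none listed. Probe positions are on build 37.1 and promoters on GRCh38.p14.

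The members, the gene lists and the tests were chosen with earlier results of these data known. Named members are those past the threshold, the brightest probe of each family and the 3 largest ratios not past it in each treatment, and further members were named after their values were seen. Same-numbered replicates of different treatments are not paired by the labels, and the data cannot decide whether they are paired.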

Additional observations from a re-analysis of the deposited data

Results flagged for a closer look

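In UNC0638 replicate 2 the log2 ratio of PAGE4 was 1.73, set apart from the other 4 replicates, which lay between 0.86 and 1.10. Both dye orientations of that replicate were high. In UNC0638 replicate 5 the ratio of CTAGE15P was -0.317, set apart from the other 4, which lay between 0.14 and 0.25. About 1 in 20 such groups of samples would have a value set apart by chance.

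Several members differed between treatments by the limma contrast. XAGE2B was -0.64 for WIZ siRNA minus UNC0638. For G9a siRNA minus UNC0638, PAGE4 was -0.81, MAGEC2 -0.42 and XAGE2B -0.40, while CTAGE11P was 0.45 and CTAGE5 was 0.36. For G9a siRNA minus WIZ siRNA, MAGEB2 was 0.98 and MAGEA6 was 0.63. On the G9a siRNA arrays PAGE4, MAGEC2 and XAGE2B were at or near background, as XAGE2B was on the WIZ siRNA arrays, and a further MAGEA6 probe did not differ by the test. Treatment time and control differ within the contrasts against UNC0638, and array set and dye balance differ between G9a siRNA and WIZ siRNA.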

How the results depend on the processing

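Of 318 recomputed values of members past the threshold, 292 kept direction and call, 26 kept direction only and 0 turned. MAGEB2, MAGEC2, PAGE4, SPANXN3 and XAGE2B passed under UNC0638 in every alternative that gave a value. MAGEA2B and MAGEC1 did not pass with the UNC0638 replicates fitted alone or with replicates 3 to 5 alone, and MAGEA6 did not with the authors' log10 table, replicates 1 and 2 alone or replicates 3 to 5 alone. The cause was not tested. Over all probes, UNC0638 gave 550 calls with the authors' log2 ratios, 630 with the log10 table, 425 with its own replicates only and 1864 with array set as a term, a choice made after seeing the data, against 1122. Members called under UNC0638 numbered 3 with the strict filter or among those above background on all arrays, counted after seeing the data, and 5 with replicates 3 to 5 alone, against 8. WIZ siRNA gave 29 calls with the log2 ratios, 47 with the log10 table, 117 with offset 16, 1204 with a dye term, 8868 with its own replicates, 7667 with array weights and 78 with array set as a term, against 176, and 0, 0, 2, 17 and 15 members with the log2 ratios, the log10 table, the dye term, own replicates and array weights, against 1. G9a siRNA gave 5283 calls with a dye term and 6670 with array set as a term, against 11702, and 9, 2 and 10 members with the log2 ratios, the dye term and own replicates, against 5. For WIZ siRNA minus UNC0638, members numbered 3 with the log10 table, offset 16, the brightest probe per gene or the replicate block, 2 with no filter, 0 with the strict filter, 7 with a dye term and 11 with array weights, against 1. For G9a siRNA minus UNC0638 they numbered 1, 2, 3, 3, 9 and 0 with the log2 ratios, the log10 table, median centring, the strict filter, array weights and array set as a term, against 5. For G9a siRNA minus WIZ siRNA they numbered 1, 4 and 0 with a dye term, array weights and array set as a term, against 2. Leaving out 1 replicate at a time gave 619 to 960 probes and 8 to 11 members for UNC0638, 17 to 368 and 0 to 1 for WIZ siRNA and 0 to 13522 and 0 to 8 for G9a siRNA, and 0 to 3, 0 to 9 and 0 to 3 members in the 3 contrasts. A lone replicate was then assumed to vary like the others. The dye term was fitted to single arrays, which counts the 2 arrays of an RNA pair separately. With replicate number as a block the counts were 1102, 178 and 12046 probes and 8, 1 and 5 members, and same-numbered deviations correlated between -0.277 and 0.365. With 2 replicates in each siRNA treatment their deviations are mirror images, so this check cannot decide whether the numbers pair the samples. Slide and scan as a block were not run, since the files used here give neither, nor a GC correction, since 68.3% of members had a probe sequence, under the 80% needed. Signal near background limits SPANXN3, XAGE2B, MAGEC1 and MAGEC2 most.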
